A study of Mus musculus with 24 samples.

Results

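Gene expression in eWAT, the epididymal fat pad of male mice and a standard depot of white fat, was compared between MUT and CON mice at circadian time 1 (CT1), the start of the subjective day. The comparison takes the 6 arrays whose titles carry CT1, 3 of each genotype and 1 per mouse, out of 24 arrays in the series. MUT mice are Syt10-Cre/Cre x Bmal1-flox/- and are described as having no working clock in the suprachiasmatic nucleus (SCN), the hypothalamic pacemaker. CON mice are Syt10-Cre/Cre x Bmal1-+/-. Both genotypes therefore carry Cre on both Syt10 alleles and lack 1 intact copy of Bmal1 (Arntl), so what separates them is the floxed copy in MUT and the intact copy in CON. Every mouse spent 2 weeks in a light-dark cycle and was killed on day 2 of constant darkness; the other arrays come from CT7, CT13 and CT19, with 3 per genotype at each. Age is not given in the sources used here, and whether Syt10-driven Cre recombines in fat cells is not stated.

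In mammals the SCN sets the phase of clocks in other organs through feeding time, body temperature, hormones such as glucocorticoids and nerve signals. Within each cell the activators BMAL1 with CLOCK or NPAS2 bind E-boxes and drive their own repressors, the PER, CRY, REV-ERB (Nr1d1, Nr1d2) and DEC (Bhlhe40, Bhlhe41) proteins. Output factors such as DBP, TEF and HLF carry the rhythm on to metabolic genes. In fat, clock output and feeding signals reach leptin secretion, glycogen handling and the synthesis and breakdown of triglyceride.

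Each array gives a log2 signal per probe set, and all values and differences here are on that scale unless called a fold. The median signal of the 6 arrays lay between 7.83 and 7.88, and the arrays correlated with each other at 0.981 to 0.992 over genes. The source field of the labels reads mediobasal hypothalamus where titles and treatment text read eWAT. Adipocyte markers had a median signal at the 99.5th percentile of all genes on these arrays, and markers of hypothalamus and neurons at the 37.8th. MUT was compared with CON for 15526 genes with limma, and a gene is said to have changed when its Benjamini-Hochberg adjusted p over those genes was under 0.05. The median standard error of a difference was 0.08 with 3 arrays a group, and the 95% interval of 96.7% of genes lay within 1.5-fold either way.

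At CT1, 7 of 15526 genes changed between the genotypes, which is 0.0451% of those tested. In MUT 5 of them were higher (Tsc22d3, Cmklr1, Mir339, Bhlhe40 and Lep), 0.0322% of genes, and 2 were lower (Supt4b and Olfr92), 0.0129%. At an unadjusted p under 0.05 there were 1791 genes, 11.5% of those tested, 979 of them higher and 812 lower. The same model gave 629 changed genes at CT7, 50 at CT13 and 425 at CT19 (4.05%, 0.322% and 2.74%). The set of called genes at CT1 was sensitive to single arrays. None of the 7 passed without CON array 1, MUT array 1 or MUT array 3, and 1 of the 7, Tsc22d3, passed without CON array 2 or CON array 3. Without MUT array 2, 4 of the 7 passed, and 6 genes in all. Arrays of the other times enter through the shared estimate of spread. The count was 3 or 4 without any 1 CON or MUT array at CT7, CON array 1 at CT13, CON array 2 at CT19 or MUT array 1 at CT19, and 18 without CON array 3 at CT13.

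**Figure D1:**
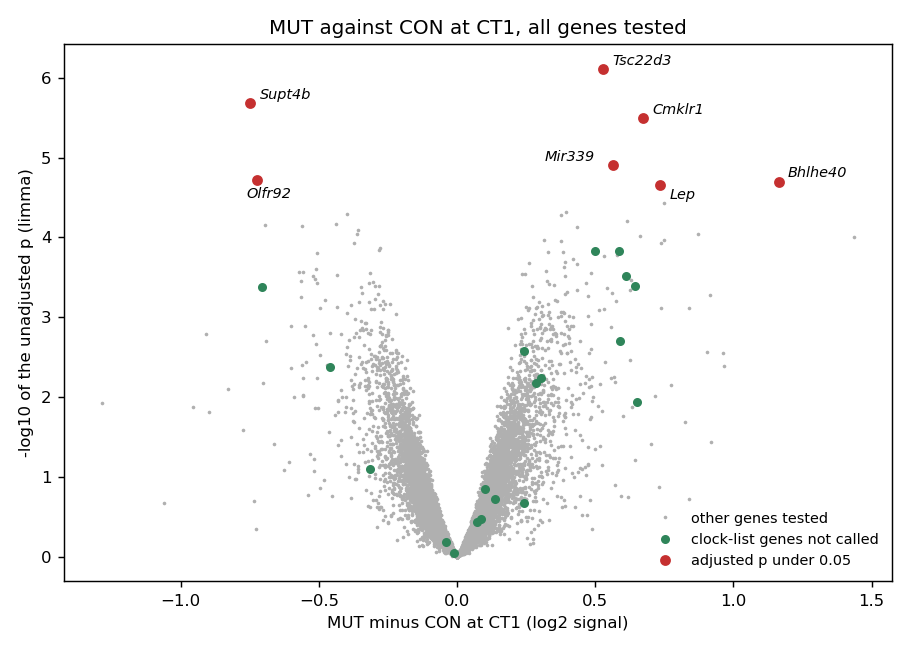
Each point is 1 of 15526 genes, with the MUT minus CON difference at CT1 in log2 signal on the horizontal axis and the negative log10 of the unadjusted limma p on the vertical axis. The 7 genes that changed are red and named, and the clock-list genes that did not pass are green; 5 of the red points lie on the right, with Bhlhe40 farthest out at 1.16.

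Bhlhe40 encodes DEC1, a basic helix-loop-helix repressor that competes with BMAL1 for E-boxes. Its log2 signals were 8.73, 8.71 and 8.80 in CON and 10.26, 9.61 and 9.87 in MUT. Every MUT array was above every CON array. The difference was 1.16 ± 0.22 (SE, n = 3 per group), a 2.24-fold rise, with an adjusted p of 0.0487. In CON, CT1 was the time of the lowest Bhlhe40 mean, 8.75 against 9.66, 9.93 and 10.82 at CT7, CT13 and CT19.

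Tsc22d3 encodes the glucocorticoid-induced leucine zipper protein. Its signals were 8.85, 9.02 and 9.05 in CON and 9.50, 9.46 and 9.55 in MUT. The MUT arrays were tightly grouped and all above the CON arrays. The gene rose by 0.53 ± 0.08 (SE, n = 3 per group), 1.44-fold, with an adjusted p of 0.0120, the smallest of the 15526 genes. CON again had its lowest mean at CT1, 8.97 against 9.22, 9.78 and 9.42 at the later times.

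Lep encodes leptin, the satiety hormone that adipocytes secrete. Its signals were 12.02, 11.94 and 11.76 in CON and 12.72, 12.55 and 12.65 in MUT, so the groups did not overlap. The rise was 0.74 ± 0.14 (SE, n = 3 per group), 1.66-fold, with an adjusted p of 0.0487. Of the 8 tested genes of the adipokine list, fixed for secreted adipocyte proteins, Lep was the one that changed. Adiponectin (Adipoq) differed by 0.12 ± 0.07, resistin (Retn) by 0.02 ± 0.06 and the list's median by 0.13. Since eWAT was measured in bulk, more leptin RNA per adipocyte and a larger share of adipocyte RNA cannot be told apart, and the adipocyte marker score stayed between -0.02 and 0.02 on the 6 arrays, with the groups overlapping.

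Cmklr1 encodes the receptor of the adipokine chemerin. Its signals were 9.51, 9.30 and 9.49 in CON and 10.43, 9.85 and 10.04 in MUT. All MUT arrays exceeded all CON arrays, MUT array 1 by the widest margin. The rise was 0.67 ± 0.11 (SE, n = 3 per group), 1.60-fold, with an adjusted p of 0.0165.

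Mir339 is a microRNA gene whose precursor gives a 5p and a 3p mature strand. The mature sequences in RefSeq (GRCm38.p6) lie on the minus strand at chr5:139369708-139369730 and chr5:139369673-139369695. They are shown 5′ to 3′ because Mir339 is the microRNA among the changed genes, with the seed, bases 2 to 8, in capitals, and their seeds differ:
mmu-miR-339-5p: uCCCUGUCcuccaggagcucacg
mmu-miR-339-3p: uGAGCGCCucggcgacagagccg
The signals were 8.01, 8.06 and 8.24 in CON and 8.58, 8.65 and 8.78 in MUT, again without overlap. The rise was 0.56 ± 0.10 (SE, n = 3 per group), 1.48-fold, with an adjusted p of 0.0478. The probe set is assigned to the gene and does not tell the 2 strands apart. RefSeq places Mir339 inside the gene 3110082I17Rik, whose own probe set differed by 0.01 ± 0.08, with an adjusted p of 0.979.

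Supt4b encodes a copy of the transcription elongation factor subunit SPT4. Its signals were 8.43, 8.34 and 8.50 in CON and 7.51, 7.84 and 7.70 in MUT, all MUT arrays below all CON arrays. It fell by 0.75 ± 0.12 (SE, n = 3 per group), CON being 1.68-fold above MUT, with an adjusted p of 0.0159. The near-identical copy Supt4a shares a probe set with it, so the assignment of this signal to 1 of the copies is uncertain. Olfr92, an odorant receptor gene, had signals of 8.04, 8.30 and 8.37 in CON and 7.19, 7.56 and 7.78 in MUT. It fell by 0.72 ± 0.13 (SE, n = 3 per group), CON being 1.65-fold above MUT, with an adjusted p of 0.0487. For both genes the groups did not overlap.

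**Figure D2:**
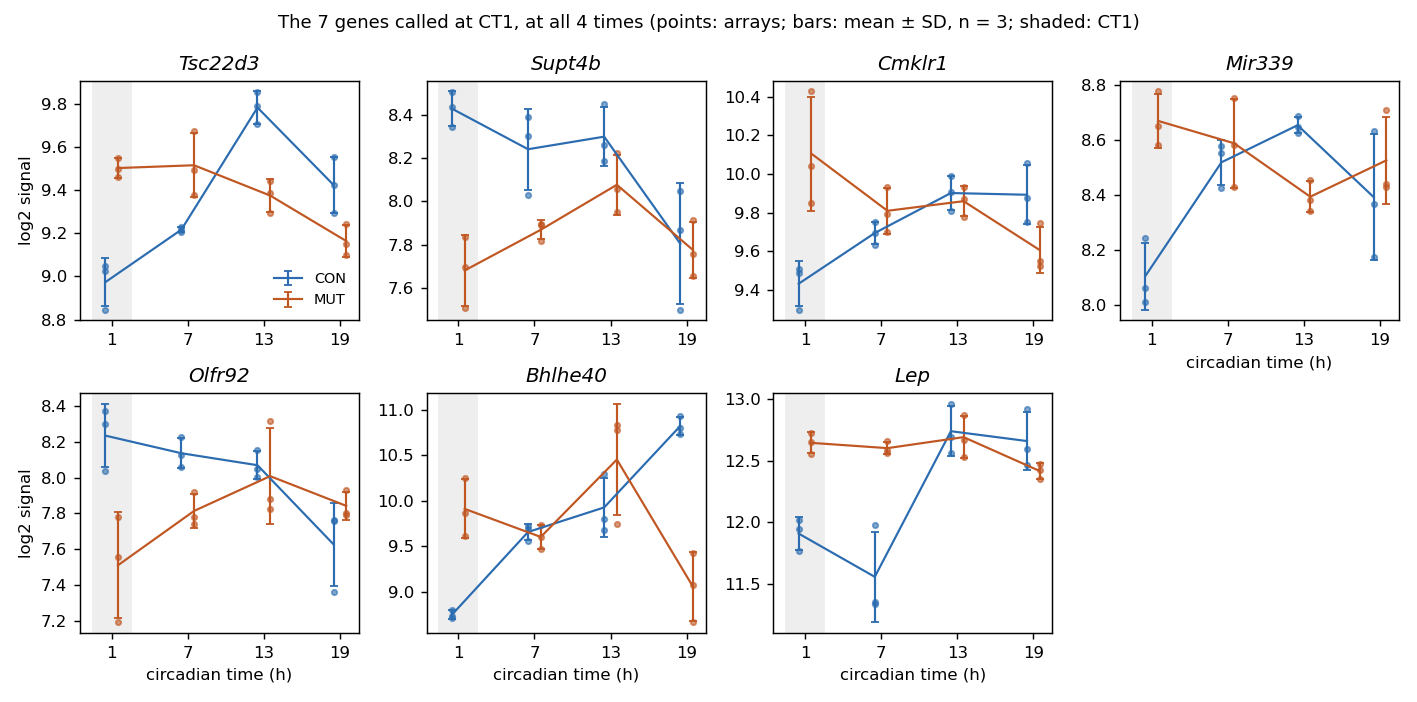
Each panel shows 1 of the 7 genes that changed at CT1, with circadian time in hours on the horizontal axis and log2 signal on the vertical axis; points are single arrays of CON and MUT, lines join the means of 3 arrays and bars are ± SD. The MUT and CON points are apart at CT1 in all 7 panels, while at the other times the order varies between genes.

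The next genes by p did not pass. On the higher side these were Lbp, Ppp2r2a, Nucb2, Timp4 and Map3k6, each with an adjusted p of 0.0709. Lbp, which encodes the lipopolysaccharide-binding protein, had signals of 10.73, 10.38 and 10.74 in CON and 11.14, 11.28 and 11.68 in MUT, a difference of 0.75 ± 0.15. Timp4, an inhibitor of matrix metalloproteinases, had 11.58, 11.73 and 11.57 in CON and 12.30, 12.35 and 12.07 in MUT, a difference of 0.62 ± 0.13. In both genes the groups did not overlap, and the differences were 1.68-fold and 1.53-fold. Ppp2r2a, a regulatory subunit of protein phosphatase 2A, differed by 0.40 ± 0.08, Nucb2, the precursor of nesfatin, by 0.38 ± 0.08, and the kinase gene Map3k6 by 0.43 ± 0.09. On the lower side the next 8 genes by p included the small nucleolar RNAs Snord35a (-0.40) and Snord85 (-0.36), the microRNA gene Mir196a-1 (-0.70), 1700030N03Rik (-0.44) and Gm10228 (-0.36). The other 3 were Cldn5 (-0.56), a tight junction protein of endothelium, Ccr7 (-0.37), a chemokine receptor of lymphocytes and dendritic cells, and Ldhal6b (-0.28), a lactate dehydrogenase-like gene. Their adjusted p was 0.0709, and 0.0731 for Ldhal6b.

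Among the 20 tested genes of the 3 clock lists, 1 changed at CT1, Bhlhe40, and none fell. The lists hold 24 genes, and those not tested, such as Per2, had no probe set of their own or lay under the level filter. The members' differences still leaned one way: 15 of 20 were above 0, against 7687 of 15526 genes, and their median was 0.24, against -0.00 for all genes. In 12 members all MUT arrays were above all CON arrays and in 2 all were below, 14 of 20 in all, where 10% of all genes were apart in the higher direction, 8.85% in the lower and 18.9% in either. At an unadjusted p under 0.05, 10 members were higher and 2 lower, where 6.31% and 5.23% of all genes were.

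Of the activators, Arntl, the gene deleted in the SCN, had eWAT signals of 9.13, 9.0 and 8.73 in CON and 8.37, 8.80 and 8.30 in MUT. MUT array 2 lay above CON array 3, so the groups overlapped. The difference of -0.46 ± 0.14 had an adjusted p of 0.190. Where the probe set lies relative to the floxed exon is not given, so this value does not check the deletion. Npas2, which can stand in for CLOCK, had 9.81, 9.56 and 9.44 in CON and 8.65, 9.37 and 8.69 in MUT, without overlap but with MUT array 2 close to the CON arrays. Its difference was -0.71 ± 0.17, with an adjusted p of 0.0959. Clock and Rora differed by -0.01 ± 0.09 and 0.08 ± 0.09. Syt10, the locus that carries Cre in both genotypes, differed by -0.10 ± 0.08, with an adjusted p of 0.687.

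Of the 9 repressors tested, 7 had a difference above 0 and the median was 0.24. Per1 had 10.28, 10.07 and 10.49 in CON and 10.95, 10.91 and 10.82 in MUT, a difference of 0.61 ± 0.14 with an adjusted p of 0.0919. Per3 had 9.03, 8.95 and 9.36 in CON and 10.01, 9.53 and 9.73 in MUT, a difference of 0.64 ± 0.16 with an adjusted p of 0.0959. Both Period genes were without overlap between the groups and did not pass. Bhlhe41, the paralog of Bhlhe40, differed by 0.65 ± 0.24, with an adjusted p of 0.266, and Ciart, which encodes the repressor CHRONO, by 0.24 ± 0.07, with an adjusted p of 0.166. The REV-ERB genes did not lean together: Nr1d1 differed by -0.32 ± 0.17, with all MUT arrays below all CON arrays, and Nr1d2 by 0.24 ± 0.19. Cry1 and Cry2 differed by -0.04 ± 0.09 and 0.10 ± 0.07.

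All 7 output genes tested had differences above 0, with a median of 0.31 and none called. Dbp, a PAR bZIP factor that follows the E-box rhythm, had 8.68, 9.09 and 9.33 in CON and 9.76, 9.50 and 9.61 in MUT. Its difference was 0.59 ± 0.17, with an adjusted p of 0.148. Tef, of the same family, had 8.63, 8.65 and 8.78 in CON and 9.39, 9.12 and 9.06 in MUT, a difference of 0.50 ± 0.11 with an adjusted p of 0.0731. Wee1, a cell cycle kinase, differed by 0.58 ± 0.13, with an adjusted p of 0.0731. In these 3 genes and in Usp2 (0.31 ± 0.10) and Tspan4 (0.28 ± 0.10) the groups did not overlap. Of all genes 10% were apart in the higher direction. Nfil3, which opposes the PAR bZIP factors at D-boxes, differed by 0.14 ± 0.10, and Hlf by 0.07 ± 0.08.

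**Figure D3:**
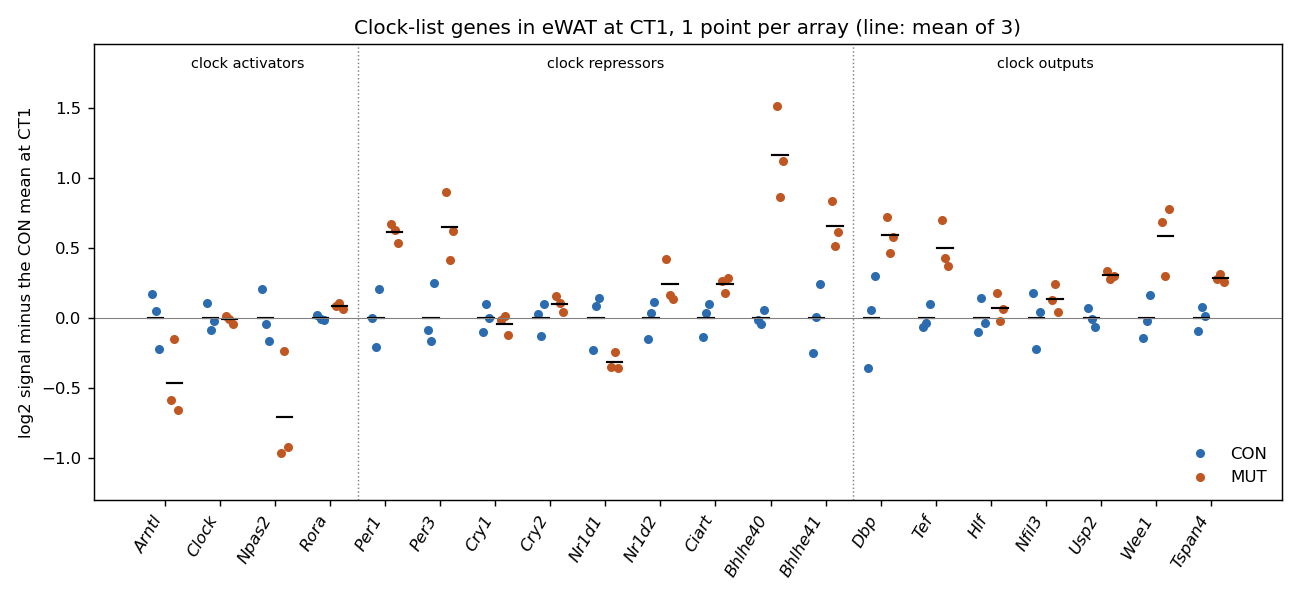
The 20 clock-list genes stand along the horizontal axis, grouped as activators, repressors and outputs, with log2 signal minus the CON mean at CT1 on the vertical axis; points are the 3 CON and 3 MUT arrays and lines are their means. Bhlhe40 has the widest gap, the MUT means of Npas2 and Arntl lie below 0, and in Clock and Cry1 the groups overlap.

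Setting each MUT mean at CT1 beside the 4 CON means describes where in the CON day it fell. For 6 of the 20 clock genes the nearest CON mean was that of CT1 itself, for 1 that of CT7, for 8 that of CT13 and for 5 that of CT19. In 16 of 20 genes the MUT mean differed from the CON mean of CT1 in the direction of the CON mean of CT7, in 16 of 20 in the direction of that of CT13 and in 10 of 20 in the direction of that of CT19. Per1 had CON means of 10.28, 11.29 and 10.73 at CT1, CT7 and CT13, and 10.89 in MUT at CT1. Dbp had 9.03, 10.65 and 9.63 in CON and 9.62 in MUT at CT1, nearest to CT13. On the falling side Npas2 had 9.61, 8.43 and 8.43 in CON and 8.90 in MUT at CT1. These counts all use the same CON arrays of CT1 and are a description.

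Whether a genotype difference at CT1 departed from that at other times was tested as the CT1 difference minus the mean of the differences at CT7, CT13 and CT19. For 16 of 15526 genes (0.103%) it did, 13 of them (0.0837%) with a more positive difference at CT1. At an unadjusted p under 0.05 there were 1616 genes, 10.4% of those tested. Of the 20 clock-list genes, 7 were among the 16: Bhlhe40, Ciart, Per1 and Per3 of the repressors and Dbp, Tef and Usp2 of the outputs. Without MUT array 1 at CT1, 2 genes passed, 1 of them on the clock lists, and without CON array 2 at CT1, 4 and 2. Counts of 9, 7 and 8 came without CON array 1 or MUT array 3 at CT1 and without CON array 3 at CT7, while 10 came without MUT array 3 at CT7. Without MUT array 2 at CT1 there were 31, and without CON array 1 at CT7 there were 42. The clock count fell from 7 to 3 without CON array 1 or MUT array 3 at CT1, and to 4 without CON array 2 or 3 or MUT array 3 at CT7 or CON array 1 at CT19. Tsc22d3 and Ciart passed without each array in turn.

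Bhlhe40 gave 1.60 ± 0.25 in this test (adjusted p 0.00728), its differences being 1.16 at CT1 and -0.05, 0.53 and -1.77 at CT7, CT13 and CT19. Ciart gave 0.61 ± 0.08 (adjusted p 0.00215), from 0.24 at CT1 and -0.91, -0.05 and -0.13 later, so CT7 weighed most. Per1 gave 0.87 ± 0.17 (adjusted p 0.0388) and Per3 0.91 ± 0.18 (adjusted p 0.0437). The output genes Dbp, Tef and Usp2 gave 1.01 ± 0.19, 0.73 ± 0.13 and 0.67 ± 0.12, with adjusted p of 0.0402, 0.0151 and 0.0151. In these and in Per1 and Per3, negative differences at other times were larger than the difference at CT1. They were -0.83 at CT7 and -0.91 at CT13 for Dbp and -0.60 at CT13 for Tef. Usp2 had -0.56 at CT13 and -0.60 at CT19, Per1 -0.65 and Per3 -0.87 at CT13. By limma these differences passed at their times, apart from Per1 (adjusted p 0.0503). For all 7 clock genes MUT was above CON at CT1 and below it on the mean of the other times. At single other times MUT was also above CON in some of them. These were Dbp (0.49), Per1 (0.37) and Per3 (0.17) at CT19, Bhlhe40 (0.53) at CT13 and Usp2 (0.06) at CT7. The activators went the other way without passing: Npas2 gave -0.97 ± 0.20 (adjusted p 0.0518) and Arntl -0.76 ± 0.17 (adjusted p 0.0830).

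Outside the clock lists, Tsc22d3 gave 0.65 ± 0.09 (adjusted p 0.00215), its differences being 0.53 at CT1 and 0.30, -0.41 and -0.26 at CT7, CT13 and CT19. Cmklr1 gave 0.74 ± 0.13 (adjusted p 0.0151) and Mir339 0.58 ± 0.12 (adjusted p 0.0495). Lep gave 0.48 ± 0.16, which did not pass (adjusted p 0.313), and its difference at CT7 was 1.04, with an adjusted p of 0.00026. Supt4b (-0.54 ± 0.14) and Olfr92 (-0.67 ± 0.16) did not pass either, with adjusted p of 0.131 and 0.0960. Ppp1r3c, which targets protein phosphatase 1 to glycogen, gave 1.06 ± 0.21 (adjusted p 0.0494) and Map3k6 0.56 ± 0.10 (adjusted p 0.0293). For Ppp1r3c MUT was above CON at CT1 (0.87), CT7 (0.30) and CT13 (0.62) and below it at CT19 (-1.50). The Ppp1r3c call in this test was lost in 22 of 35 alternative fits. The call was lost in 20 for Mir339, 19 for Per3, 14 for Dbp, and 13 each for Per1 and Trp53i11. The other departing genes lost it in at most 5 fits. Cldn5 gave -0.85 ± 0.13 (adjusted p 0.00728): in CON its mean was 9.97 at CT1 and 9.35, 9.25 and 9.27 later, while in MUT it was 9.41, 9.41, 9.40 and 9.94. The remaining 3, named after their values were seen, were Neurog3, a basic helix-loop-helix factor (0.47 ± 0.08, adjusted p 0.0128), Gm9776 (-0.46 ± 0.08, adjusted p 0.0284) and Trp53i11 (-0.87 ± 0.17, adjusted p 0.0402). Neurog3 was dim at CT1, with signals of 7.57, 7.45 and 7.46 in CON and 7.86, 7.79 and 7.78 in MUT. The level filter was 7.416.

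**Figure D4:**
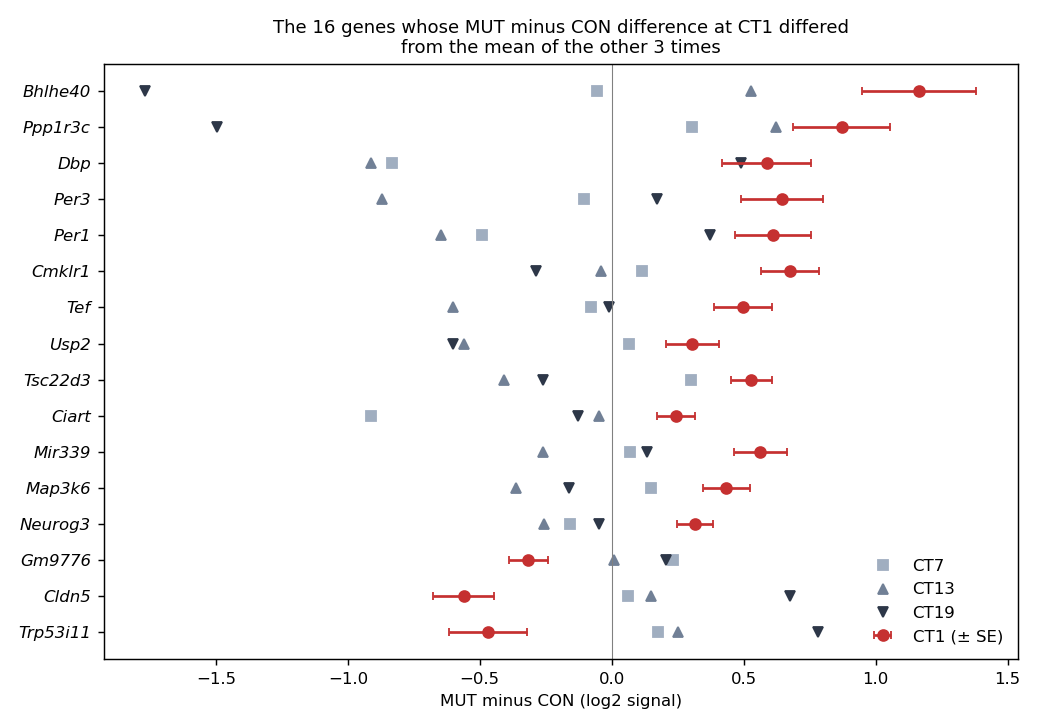
Each row is 1 of the 16 genes whose difference at CT1 departed from the other times, with the MUT minus CON difference in log2 signal on the horizontal axis; red points with SE bars are CT1 and grey or dark markers are CT7, CT13 and CT19. In 13 rows the red point lies to the right of 0, with Bhlhe40 farthest at 1.16, and in 3 rows (Gm9776, Cldn5 and Trp53i11) to the left.

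Promoter sequence was available in RefSeq (GRCm38.p6) for 14 of these 16 genes, with no entry for Bhlhe40 or Mir339. The E-box CACGTG, the site of BMAL1 and its partners, was searched on both strands from 250 bases before the start to 50 after it. It was present for 5 of the 14 genes, Ciart, Cmklr1, Per1, Ppp1r3c and Tef, and for 6 of 18 clock-list genes with an entry, against 10.8% of 12084 tested genes. The 250 bases before a start of these 5 genes are shown 5′ to 3′ on the gene's strand, because they are the departing genes that hold an E-box, which is in capitals. They lie at chr3:95882229-95882478 (minus strand, Ciart), chr11:69098699-69098948 (plus, Per1), chr15:81802423-81802672 (plus, Tef), chr5:113643604-113643853 (minus, Cmklr1) and chr19:36736605-36736854 (minus, Ppp1r3c):
Ciart: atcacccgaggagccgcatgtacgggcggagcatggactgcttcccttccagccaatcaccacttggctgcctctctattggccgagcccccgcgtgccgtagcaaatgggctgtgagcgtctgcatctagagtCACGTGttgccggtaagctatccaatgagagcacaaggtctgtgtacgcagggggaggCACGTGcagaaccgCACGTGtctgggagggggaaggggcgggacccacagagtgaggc
Per1: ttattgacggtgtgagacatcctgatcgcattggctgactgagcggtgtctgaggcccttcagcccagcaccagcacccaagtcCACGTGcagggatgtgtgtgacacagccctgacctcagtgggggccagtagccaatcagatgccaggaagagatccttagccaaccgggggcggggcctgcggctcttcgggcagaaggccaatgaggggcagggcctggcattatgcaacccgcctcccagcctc
Tef: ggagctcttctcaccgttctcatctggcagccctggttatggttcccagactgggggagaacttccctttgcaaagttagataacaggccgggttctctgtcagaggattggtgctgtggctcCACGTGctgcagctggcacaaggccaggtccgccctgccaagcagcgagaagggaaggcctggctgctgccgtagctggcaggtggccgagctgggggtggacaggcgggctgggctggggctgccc
Cmklr1: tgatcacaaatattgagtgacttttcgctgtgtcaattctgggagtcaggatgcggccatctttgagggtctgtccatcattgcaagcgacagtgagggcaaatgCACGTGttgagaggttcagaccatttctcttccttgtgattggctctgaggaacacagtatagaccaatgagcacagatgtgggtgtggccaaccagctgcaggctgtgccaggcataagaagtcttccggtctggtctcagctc
Ppp1r3c: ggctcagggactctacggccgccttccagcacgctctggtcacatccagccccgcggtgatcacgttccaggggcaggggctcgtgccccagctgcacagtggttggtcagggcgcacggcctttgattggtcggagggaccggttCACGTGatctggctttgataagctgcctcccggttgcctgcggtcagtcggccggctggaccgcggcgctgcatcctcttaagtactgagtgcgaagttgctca
Ciart holds 3 E-boxes in the window shown and the other 4 genes hold 1 each. RefSeq gives another start for Per1 and for Tef, not shown: the 250 bases before it hold an E-box in Tef and none in Per1. A match shows that these letters are in the window and not that a factor binds there. The D-box TTANGTAA, the site of DBP, TEF, HLF and NFIL3, was found in 1.85% of tested genes and in 1 of the 14, Per3. The glucocorticoid response element was found in 0.463% of tested genes and in 1 of the 14, Map3k6.

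The 14 genes fixed as glucocorticoid targets had a median difference of 0.23, with 12 of 14 above 0 and 1 called, Tsc22d3. In 6 of them all MUT arrays were above all CON arrays and in 1 all were below, where 10% and 8.85% of all genes were. At an unadjusted p under 0.05, 4 were higher and 2 lower, where 6.31% and 5.23% of all genes were. After Tsc22d3 and Per1, the smallest p belonged to Angptl4, a secreted inhibitor of lipoprotein lipase, which was on the other side. Its signals were 11.61, 11.82 and 11.88 in CON and 11.00, 11.21 and 11.40 in MUT, a difference of -0.56 ± 0.13 with an adjusted p of 0.0959. Fkbp5, a chaperone that binds the glucocorticoid receptor, differed by 0.32 ± 0.12 and Cdkn1a by 0.42 ± 0.16, with adjusted p of 0.280 and 0.295. Per1 stands on this list and on the clock list, so the lists are not separate samples of genes.

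Heat shock and endoplasmic reticulum chaperones leaned toward higher signal in MUT, with none of 13 and none of 16 called by limma. In the heat shock and cold-inducible list 11 of 13 differences were above 0 and the median was 0.16. At an unadjusted p under 0.05, 5 were higher and 1 lower, where 6.31% and 5.23% of all genes were. Hspb1, Hsph1 and Hspa1b differed by 0.39 ± 0.11, 0.44 ± 0.16 and 0.36 ± 0.13, and the cold-inducible Cirbp by -0.26 ± 0.11. Of the unfolded protein response and amino acid response list, 13 of 16 were above 0, with a median of 0.14 and 4 higher and 0 lower at an unadjusted p under 0.05. Ddit3, the factor CHOP, differed by 0.34 ± 0.10, and the chaperone Hsp90b1 by 0.30 ± 0.10. The 11 immediate early genes had a median of 0.06 and none called, with 1 higher at an unadjusted p under 0.05.

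Metabolic lists held few differences that stood out from the arrays' spread. In fatty acid and triglyceride synthesis none of 20 genes was called, 1 was higher at an unadjusted p under 0.05 (Lpin1, 0.28 ± 0.09), and the median was -0.19 with 4 of 20 above 0. At that threshold 6.31% of all genes were higher and 5.23% lower. Acly, the enzyme that supplies cytosolic acetyl-CoA, had signals of 12.05, 12.70 and 12.52 in CON and 11.66, 11.35 and 12.38 in MUT. The groups overlapped and the difference was -0.63 ± 0.34, with an adjusted p of 0.503. Fasn differed by -0.24 ± 0.16 and the regulator Srebf1 by 0.04 ± 0.15. In fatty acid oxidation none of 14 was called or reached an unadjusted p under 0.05, and the median was -0.11. In oxidative phosphorylation, again with none of 17 called and none at an unadjusted p under 0.05, 2 of 17 were above 0, the median was -0.09 and all 17 intervals lay within 1.5-fold. Brown adipocyte markers had a median of -0.32 beside these 2 lists, and their part in them was not tested.

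Lipolysis and fatty acid handling had 0 of 17 called, a median of -0.03, and 2 higher and 2 lower at an unadjusted p under 0.05. Of all genes 6.31% were higher and 5.23% lower at that threshold. Besides Angptl4, the largest difference there was in Angptl8, a feeding-responsive partner in lipase control. Its signals were 9.26, 9.50 and 9.35 in CON and 9.84, 10.22 and 10.53 in MUT, a difference of 0.82 ± 0.33 with an adjusted p of 0.320. The lipases themselves were close: Pnpla2 differed by 0.03 ± 0.06, Lipe by -0.07 ± 0.06 and Lpl by -0.03 ± 0.07. In insulin signalling and glucose use, with 0 of 16 called and 1 at an unadjusted p under 0.05, the glycogen-targeting gene Ppp1r3c had 9.11, 9.38 and 9.39 in CON and 10.23, 9.97 and 10.29 in MUT. Its groups did not overlap, and the difference was 0.87 ± 0.18, 1.83-fold, with an adjusted p of 0.0709. The insulin receptor gene Insr differed by -0.12 ± 0.08, and the glucose transporter gene Slc2a4 by -0.01 ± 0.13. Pparg, the master regulator of adipocyte identity, differed by 0.26 ± 0.07, with an adjusted p of 0.115, and was the member of the 11 adipogenic factors that reached an unadjusted p under 0.05.

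The extracellular matrix list had 0 of 13 called, 10 above 0, a median of 0.10 and 4 higher at an unadjusted p under 0.05. Of all genes 6.31% were higher at that threshold, and 11.5% reached it in either direction. Lox, which crosslinks collagen, had 9.44, 9.17 and 9.36 in CON and 9.58, 9.74 and 9.95 in MUT, a difference of 0.44 ± 0.10 with an adjusted p of 0.0862. Fn1, Adamts5 and Col6a1 differed by 0.47 ± 0.15, 0.51 ± 0.19 and 0.37 ± 0.14. The fibrillar collagens were nearer to 0, with Col1a1 at 0.08 ± 0.10 and Col3a1 at 0.13 ± 0.10. Mesothelial markers had a median of 0.23 in the same comparison. With the mesothelium score as a covariate, Lox, Fn1, Adamts5 and Col6a1 differed by 0.43, 0.35, 0.41 and 0.33. Cholesterol synthesis (0 of 13 called, median 0.02, 2 at an unadjusted p under 0.05) and p53 targets (0 of 9, median 0.10, 2) gave no call by limma. Neither did interferon response (0 of 6, median 0.04, 1), inflammation (0 of 8, median 0.04, 0), adrenergic and cAMP signalling (0 of 9, median -0.03, 0), pyruvate and ketone metabolism (0 of 12, median 0.01, 1) or cell cycle (0 of 7, median 0.11, 0).

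**Figure D5:**
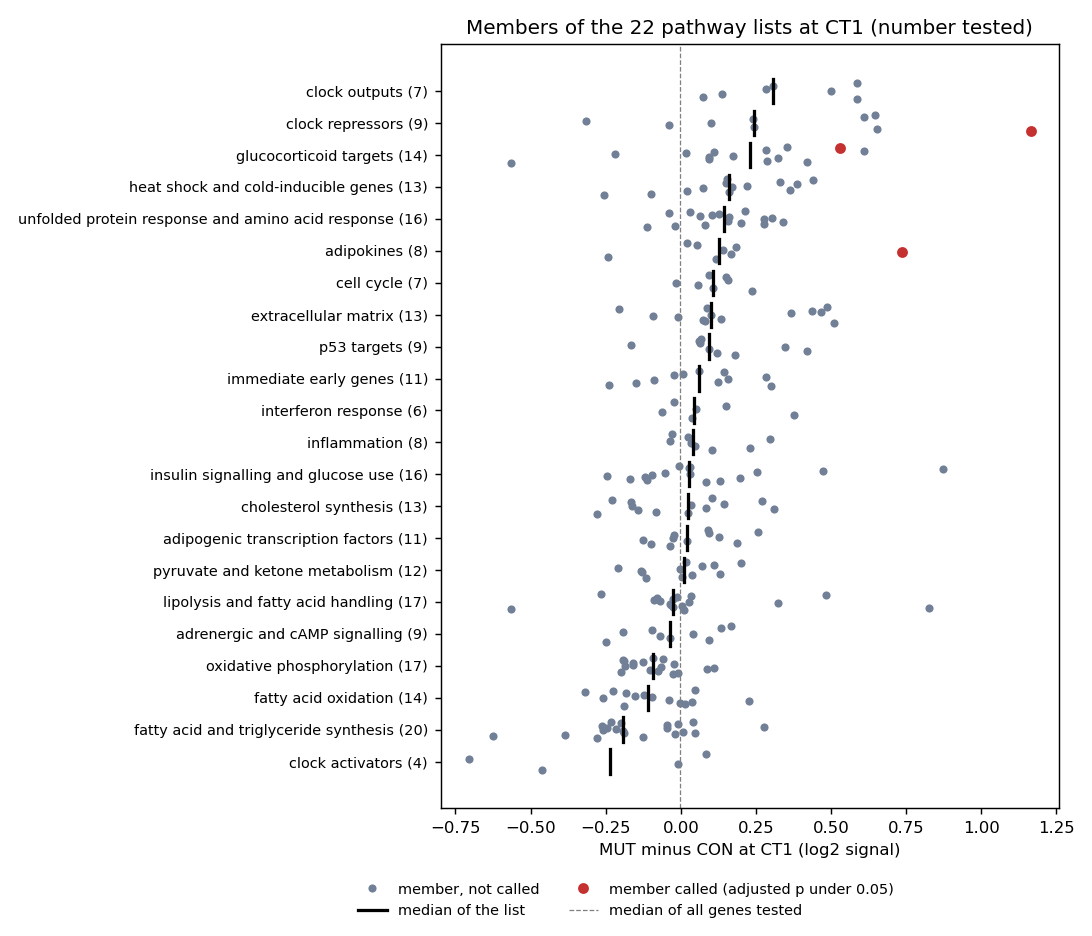
Each point is a gene of 1 of the 22 pathway lists, named on the vertical axis with its number of tested members and ordered by the list's median, with the MUT minus CON difference at CT1 in log2 signal on the horizontal axis. Red points are the members that changed (Bhlhe40, Tsc22d3 and Lep), black bars are medians and the dashed line is the median of all genes; clock outputs have the highest median, 0.31, and clock activators the lowest, -0.24.

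Markers of other cell types were looked at in the same arrays. Mesothelial markers, which can enter with the lining of the fat pad, were above 0 in 9 of 9, with a median of 0.23. In 3 of them all MUT arrays were above all CON arrays, where 10% of all genes were. The mesothelium score ran from -0.49 to -0.00 in CON and from -0.03 to 0.19 in MUT, and none of the 9 was called by limma (0 at an unadjusted p under 0.05). With that score as a covariate 4 of the 7 genes kept their call at CT1 (Tsc22d3, Supt4b, Cmklr1 and Mir339). Bhlhe40, Lep and Olfr92 then differed by 1.09, 0.67 and -0.70, each with an adjusted p of 0.0736. Of 8 endothelial markers 3 had all MUT arrays below all CON arrays, Cldn5, Kdr (-0.22 ± 0.10) and Cdh5 (-0.14 ± 0.07), while Pecam1 differed by 0.03 ± 0.09. Of all genes 8.85% were apart in the lower direction. The endothelial list had 3 of 8 differences above 0 and a median of -0.04. Its score overlapped between the groups, at -0.08 to 0.05 in MUT and 0.02 to 0.08 in CON. The 5 brown adipocyte markers tested were all below 0, with a median of -0.32 and Cidea at -0.56 ± 0.18. In 1 of the 5, Cidea, all MUT arrays were below all CON arrays. Cidea signals in MUT were 7.44, 7.47 and 7.46, just over the level filter of 7.416. The 6 measured markers had a median signal at the 40.1st percentile of all genes. The brown adipocyte score, from 6 measured markers, was -0.16 to -0.06 in MUT and 0.04 to 0.16 in CON. Scores of T cells (-0.15 to -0.04 against -0.02 to 0.11) and mast cells (-0.21 to 0.01 against 0.05 to 0.12) were also lower in all MUT arrays. These 2 scores rest on 5 and 6 measured markers, of which only 2 and 3 passed the level filter and were tested. Neither Cd3d nor Cma1 was tested. What part the brown adipocyte, T cell and mast cell markers have in the results was not tested. Among the 7 smooth muscle markers Acta2 differed by 0.51 ± 0.13, with an adjusted p of 0.115, and the median was 0.03.

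The genes beside Arntl on its chromosome were looked at because they lie next to the engineered allele. None of the 10 tested genes on either side was called by limma, and 5 of 20 had an unadjusted p under 0.05, 3 higher and 2 lower. Of all genes tested 11.5% did, 6.31% higher and 5.23% lower. The lowest adjusted p among them was 0.136, for Far1 (0.23 ± 0.06).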

How the data were processed

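Trizol-extracted total RNA of eWAT was biotin-labelled for Affymetrix GeneChips, per the labels' protocols. The values used are the authors' deposited log2 expression values per probe set, made with RMA and Affymetrix Expression Console per the submitters' processing notes. Versions, settings and the annotation build: not given in the sources used here. There are 34390 probe sets: 23521 with 1 gene symbol, 1814 with several and 9055 with none. The brightest probe set was taken for each of 22180 genes, and 15526 genes at or above a mean signal of 7.416, the 30th percentile, were kept.

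A model with a mean per group was fitted to all 24 arrays (16 residual degrees of freedom) with limma 3.58.1 in R 4.3.3, with two-sided moderated tests and Benjamini-Hochberg adjustment over all genes at 0.05. The fit was tested on simulated data. Precision is limited by 3 arrays a group, and arrays are taken as separate mice, as the labels say. Array letters were not treated as pairs. Gene lists are described by counts and medians. A gene list's score on an array is the median of its members' deviations from their CT1 means. It takes all members with a probe set of their own, also those under the level filter. The mesothelium covariate is the same median with deviations from the means of all 24 arrays.

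By rule the text names, with under 10 genes called, the 10 genes with the smallest p in each direction, all clock-list members, Arntl, Syt10, up to 4 members of each other list with the smallest p, genes beside Arntl where called, and of the called genes the 6 with the smallest p of the difference against other times. Neurog3, Gm9776, Trp53i11, 3110082I17Rik, Far1 and further list members named for their role were chosen after their values were seen. The members and lists were chosen with earlier results of these data known. The alternatives were other normalizations, filters, probe set rules, variance models and thresholds, a replicate block, a mesothelium covariate and each array left out; leaving out the arrays of other times was added after seeing the data. Probe sets with several symbols were not used.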

Additional observations from a re-analysis of the deposited data

Results flagged for a closer look

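For 16 genes the MUT minus CON difference in eWAT at CT1 departed from the mean difference at CT7, CT13 and CT19, by limma's test of that difference with Benjamini-Hochberg adjustment over all genes. In 13 the difference was more positive at CT1, by the log2 amounts given: Ciart (0.61), Tsc22d3 (0.65), Bhlhe40 (1.60), Neurog3 (0.47), Cmklr1 (0.74), Usp2 (0.67), Tef (0.73), Map3k6 (0.56), Per1 (0.87), Dbp (1.01), Per3 (0.91), Ppp1r3c (1.06) and Mir339 (0.58). In the other 3 it was more negative: Cldn5 (-0.85), Gm9776 (-0.46) and Trp53i11 (-0.87). Genes of the clock lists (Bhlhe40, Ciart, Per1, Per3, Dbp, Tef and Usp2) make up 7 of the 16. Those lists hold 20 of the 15526 genes tested. The adjusted p ran from 0.00215 for Tsc22d3 and Ciart to 0.0495 for Mir339.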

How the results depend on the processing

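Direction was kept by all 7 genes called at CT1 under every alternative fit run. At an adjusted p under 0.01 none of them passed, and a fold of at least 1.5 leaves out Tsc22d3 and Mir339. Over the fits at the 0.05 threshold, Tsc22d3 lost its call in 3 of 36, Supt4b in 5 of 35, Cmklr1 in 6 of 36, Mir339 in 14, Bhlhe40 in 22 and Lep in 24 of 36, and Olfr92 in 26 of 35; the cause was not tested. The CT1 count of 7 became 11 after quantile normalization (54.5% higher, against 71.4%), 13 without the level filter (38.5% higher), 3 with a 60th percentile filter, 3 over all probe sets, 30 with the CT1 arrays alone, 58 with array weights, 4 with trended and robust variance and 0 at an adjusted p under 0.01. With the level trend removed it was 9 (55.6% higher). The count of 16 genes departing from the other times became 26 after quantile normalization, 10 without the filter, 53 with array weights, 28 with the mesothelium covariate and 4 at 0.01. Its 7 clock genes became 4 at a common median, without the filter and with trended variance, and 2 at 0.01. Without single arrays the counts ran from 0 to 18 at CT1, from 2 to 42 against the other times, from 1 to 9 for clock genes there and from 0 to 4 for called members of the pathway lists. At CT1 deviations of same-letter arrays correlated at 0.11, -0.09 and -0.05, and 2 of 6 arrays correlated best with their own letter. With 3 arrays a group these values cannot decide whether the letters pair the arrays. With the letters as a replicate block the CT1 count was 3, and 15 genes, 4 of them clock genes, departed from the other times. Differences near 0 changed sign: Clock gave 0.015 at a common median and -0.053 to 0.043 without single arrays, and Cry1 -0.090 to 0.0099. Of 333 recomputed list medians, 34 moved by more than the arrays' SD. A gene with a dim signal may be missed with 3 arrays a group.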
